A study of Mus musculus with 26 samples.

Results

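DN1eP cells, a thymocyte fraction that the series describes as immature precursors, were set against stage 2 thymic natural killer T (NKT) cells in 7 of the 26 RNA-seq libraries of the series. The members were chosen by sample name: DN1eP libraries 1 to 4 and stage 2 libraries 5 to 7. These 3 of the 7 stage 2 libraries are the ones whose median level over expressed genes was as low as in DN1eP. Both groups came untreated from the thymus of C57BL/6 mice of 6 to 8 weeks, described as wild type. DN1eP cells had been sorted as CD5+, CD27+ and CXCR3+ thymocytes with CD44 and low CD24 but without lineage markers, CD25 or Ly108, and they lacked the Vα14Jα18 T cell receptor (TCR) on the surface. Stage 2 cells had been sorted by binding of a CD1d dimer loaded with αGalCer, TCRβ and CD44, and by the absence of NK1.1. Libraries were made with the SMARTer Ultra Low Input kit or the TruSeq kit, but the labels do not say which library had which kit. Nor do they say whether libraries of a group came from separate animals, so p-values rest on the spread between these samples alone, which may be technical.

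NKT cells are T lymphocytes whose semi-invariant TCR reads lipids held by the MHC-like molecule CD1d. They arise in the thymus from double positive thymocytes under the transcription factor PLZF, and pass through stages that are told apart by CD44 and NK1.1. Stages 1 and 2 divide and can secrete IL-4, whereas stage 3 cells are largely quiescent, carry receptors otherwise known from natural killer (NK) cells and hold T-bet, granzymes and IFN-γ. The comparison asks how the transcriptome of the sorted precursor fraction stands relative to dividing NKT cells that have not yet gained NK1.1. The tissue is a sorted bulk population, in which fewer cells of a type and less RNA per cell cannot be told apart.

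Values were FPKM, mapped fragments scaled by transcript length and by the size of the library, so levels of different genes are given per length. Over genes with an FPKM of at least 1, the median was 8.10 to 8.94 in DN1eP and 8.33 to 9.03 in stage 2. DN1eP library 1 stood apart from the other DN1eP libraries. Over log2(FPKM + 1) of the tested genes, the correlation between any pair of DN1eP libraries 2 to 4 was 0.926 to 0.935, that of library 1 with these 3 was 0.866 to 0.896, and that of library 1 with the stage 2 libraries was 0.899 to 0.907. For genes of 20 to 100 FPKM, the half-width of the authors' deposited interval was 6.24% in DN1eP library 1 and 18.8% to 23.8% in DN1eP libraries 2 to 4, against 5.65% to 6.26% in stage 2. Precision therefore runs with group in DN1eP libraries 2 to 4 and cannot be told apart from it there, while library 1 was measured as precisely as stage 2. Stage 2 library 6 held more hemoglobin transcripts than the other stage 2 libraries, and higher sums over the B cell and dendritic cell lists, which share Cd74. Results that rest on these 2 libraries are given with and without them.

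Of 10082 genes whose FPKM reached 1 in 3 or more of the 7 libraries, 937 were higher in DN1eP (9.29%) and 542 were lower (5.38%), together 14.7%, by limma on log2(FPKM + 1) with Benjamini-Hochberg adjustment at 0.05. Of these 1479 genes, 1384 had no overlap between the DN1eP and the stage 2 libraries, against 26.5% of all tested genes, the called ones included. Overlap and test use the same values, so the missing overlap is no separate support for the calls. Among the gene lists, NK receptors and their signalling adaptors, cytotoxic granule genes, chemokine ligands and cytokine receptors had high shares of members that were higher in DN1eP. So did mast cell and basophil markers (71.4%), granulocyte and monocyte markers (66.7%), GIMAP genes (62.5%) and genes of egress and tissue retention (47.1%). These shares lay above the 45.5% of the chemokine ligands. Mitosis, DNA replication and replication-dependent histone genes had high shares of lower members, 49 genes in all or 9.04% of the genes called lower. The number of calls depended on single libraries: without DN1eP library 1 there were 1873 higher (18.6%) and 923 lower genes (9.15%), without stage 2 library 6 there were 473 (4.69%) and 360 (3.57%), and without stage 2 library 7 there were 241 and 239. List counts given below without DN1eP library 1 or stage 2 library 6 stand against the shares of that setting. After quantile normalization, which moved the median log2 fold change of all genes by -0.16, 845 genes were higher (8.38%) and 856 lower (8.49%). The share of calls on the higher side was 49.7% there, against 63.3% as tested.

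**Figure D1:**
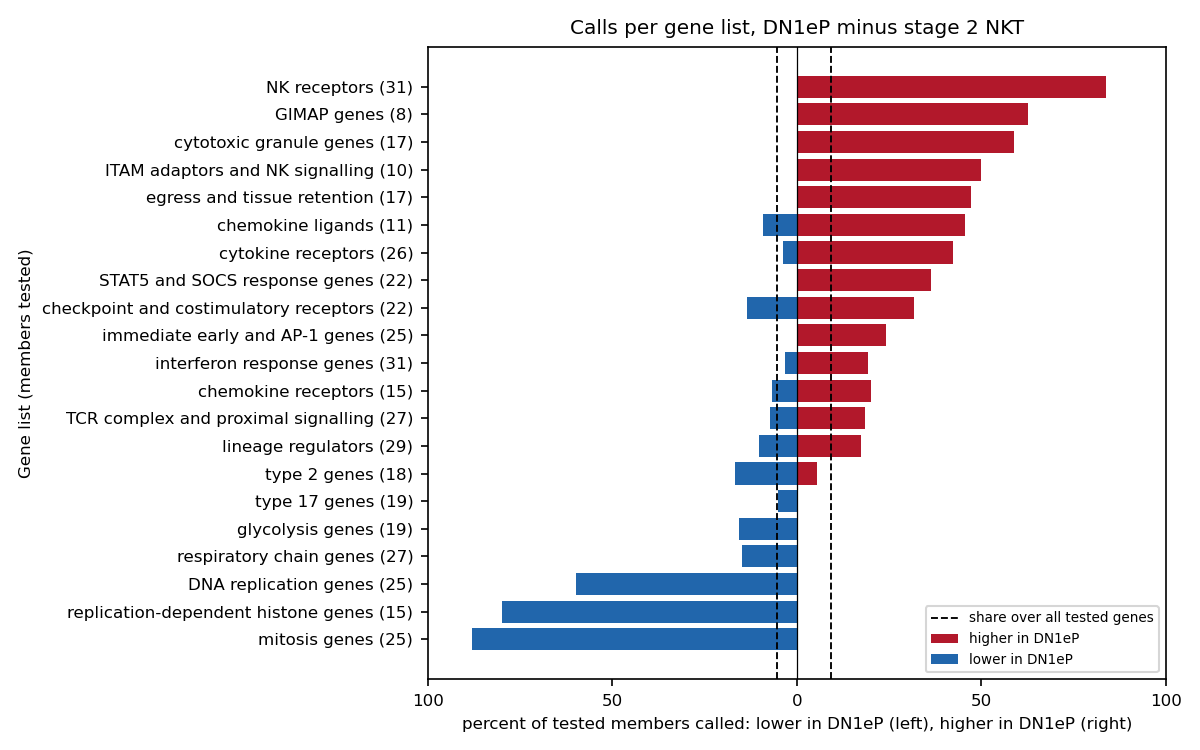
Percent of tested members called higher (right, red) or lower (left, blue) in DN1eP than in stage 2 NKT at an adjusted p under 0.05. A selection of the 43 gene lists is shown, with the number of members tested in brackets. Lists of markers of other cell types are left out, among them mast cell and basophil markers (71.4% higher) and granulocyte and monocyte markers (66.7% higher). The dashed lines mark the shares over all tested genes, 9.29% higher and 5.38% lower; 26 of 31 tested NK receptors lie on the higher side and 22 of 25 mitosis genes on the lower.

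NK receptors were the list with the highest share of members higher in DN1eP. Among 35 receptor genes of the list, 31 passed the filter on low values and 26 of these were higher in DN1eP, with none lower. The share higher was 83.9%, against 9.29% of all tested genes. One of the 26 is Klrb1c, the gene of NK1.1, by whose absence stage 2 was sorted, and without it the count was 25 of 30. The median log2 fold change over the 31 was 3.49, against 0.12 over all tested genes. The count was 27 without DN1eP library 1 and 26 without stage 2 library 6. Klrc1, which encodes NKG2A, an inhibitory receptor for the nonclassical MHC molecule Qa-1, was at 433, 312, 314 and 294 FPKM in DN1eP libraries 1 to 4, against 4.29, 1.65 and 3.58 FPKM in stage 2 libraries 5 to 7. All 4 DN1eP libraries lay far above all 3 stage 2 libraries (log2 fold change 6.39 ± 0.27 SE, limma adjusted p = 1.19e-07). Klrc2, which encodes the activating partner NKG2C, was at 203, 137, 108 and 87.8 FPKM in DN1eP, against 4.85, 1.03 and 4.19 FPKM in stage 2. Klrd1, which encodes CD94, the chain both NKG2 proteins pair with, was at 876, 518, 381 and 382 FPKM in DN1eP and at 66.1, 33.0 and 36.0 FPKM in stage 2. It was chosen after its values were seen. Both receptor genes and the gene of their shared chain were thus high in all 4 DN1eP libraries.

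Klrk1 encodes NKG2D, an activating receptor for stress-induced ligands. It was at 383, 188, 168 and 148 FPKM in DN1eP, against 10.6, 6.44 and 6.51 FPKM in stage 2 (log2 fold change 4.58 ± 0.33 SE, limma adjusted p = 7.59e-06). Klre1, a lectin-like receptor of the same gene complex, was at 283, 117, 123 and 115 FPKM in DN1eP and at 3.91, 1.25 and 1.49 FPKM in stage 2. DN1eP library 1 was the highest of the 4 on both genes, and no DN1eP library overlapped with stage 2. NKp46, the activating receptor encoded by Ncr1, had a transcript level of 42.1, 60.0, 45.8 and 49.3 FPKM in DN1eP, against 0.0772 FPKM in stage 2 library 5 and 0 in libraries 6 and 7 (log2 fold change 5.60 ± 0.27 SE, limma adjusted p = 3.19e-07). Cd244, which encodes the SLAM family receptor 2B4, averaged 13.5 ± 1.60 FPKM in DN1eP and 0.243 ± 0.213 FPKM in stage 2 (SD, n = 4 and 3).

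Ly49 receptors, which read classical MHC class I and are encoded by the Klra genes, were also higher. Klra5 was at 344, 184, 180 and 161 FPKM in DN1eP, against 8.94, 3.35 and 2.51 FPKM in stage 2. Klra7 was at 117, 136, 125 and 113 FPKM in DN1eP and at 7.90, 7.90 and 7.78 FPKM in stage 2, with a log2 fold change of 3.80 ± 0.20 SE (limma adjusted p = 5.22e-07). Both groups were tight on Klra7, which was chosen after its values were seen. Reads from Klra genes can be split between near-identical copies, so the level of a single Klra gene is uncertain. Cd226, Klra1, Klra3, Klra22 and Klrb1f did not pass the test. With a term for the set of gene intervals that DN1eP library 1 and stage 2 library 5 were listed with, Klra3 did (log2 fold change 1.69, limma adjusted p = 0.00133).

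Signalling adaptors of these receptors were higher as well. Of the 10 tested genes for ITAM adaptors and NK signalling, 5 were higher in DN1eP and none was lower, with a median log2 fold change of 1.63. The count was 3 without stage 2 library 7. Fcer1g, the ITAM-bearing γ chain, was at 483, 485, 429 and 442 FPKM in DN1eP, against 31.9, 42.0 and 18.7 FPKM in stage 2 (log2 fold change 3.93 ± 0.27 SE, limma adjusted p = 5.53e-06). Tyrobp, which encodes DAP12, the adaptor of activating Ly49 and NKG2C receptors, was at 115, 209, 192 and 200 FPKM in DN1eP and at 1.74, 16.8 and 0.312 FPKM in stage 2. Stage 2 library 6 held most of the stage 2 signal. Fcgr3, a low-affinity IgG receptor that signals through Fcer1g, was at 16.8 ± 1.48 FPKM in DN1eP and 0.800 ± 0.576 FPKM in stage 2 (SD, n = 4 and 3). Hcst, which encodes DAP10, the adaptor of NKG2D, was at 673 ± 122 FPKM in DN1eP and 308 ± 66.5 FPKM in stage 2. The call of Hcst was lost without DN1eP library 2 or 4 or stage 2 library 7.

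Some markers of NK cells and of other innate lymphoid cells stood beside T cell transcripts. Of 17 tested innate lymphoid cell markers, 5 were higher in DN1eP and 1, Il17rb, was lower. These are 29.4% and 5.88%, against 9.29% and 5.38% of all tested genes. The 11 not called include the abundant Id2 and Il7r (log2 fold change 0.04 and 0.26). Summed over the 20 markers, the groups overlapped, at 2044 to 5093 FPKM in DN1eP and 2124 to 2812 FPKM in stage 2. Id2 and Il7r made up most of the sum in every library, so it says little of the other markers. Eomes, a T-box factor of NK cells, was at 1.21, 5.20, 4.78 and 3.63 FPKM in DN1eP and at 0.269, 0 and 0 FPKM in stage 2, a call lost without stage 2 library 7. Cd3e, a chain of the TCR complex, was at 1538, 1336, 1186 and 1117 FPKM in DN1eP, against 897, 831 and 806 FPKM in stage 2. Innate lymphoid cells lack a surface TCR complex. How the receptor transcripts are shared between cells of the sorted fraction was not tested.

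Cytotoxic granule genes were higher in DN1eP in 10 of 17 tested members and lower in none, with a median log2 fold change of 1.17. The share higher was 58.8%, against 9.29% of all tested genes. The list holds 23 genes, of which 6 did not pass the filter. The count was 10 without DN1eP library 1 and 8 without stage 2 library 6. Gzma encodes granzyme A, a granule protease. It was at 954, 454, 500 and 514 FPKM in DN1eP, against 15.9, 17.6 and 12.5 FPKM in stage 2 (log2 fold change 5.16 ± 0.28 SE, limma adjusted p = 5.22e-07). Gzmb, which encodes the caspase-activating granzyme B, was at 978, 273, 210 and 287 FPKM in DN1eP and at 25.7, 40.2 and 23.3 FPKM in stage 2. DN1eP library 1 was the highest of its group on Gzmb, and the other DN1eP libraries also lay above stage 2. Without library 1 the log2 fold change of Gzmb was 3.09 (limma adjusted p = 7.73e-06), against 3.58 with it (0.00207).

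Prf1, which encodes the pore-forming perforin, was at 88.5, 44.3, 36.6 and 36.3 FPKM in DN1eP, against 1.02, 1.12 and 1.51 FPKM in stage 2. Fasl, a death ligand on the cell surface, was at 242, 239, 260 and 208 FPKM in DN1eP and at 10.6, 9.20 and 6.16 FPKM in stage 2 (log2 fold change 4.65 ± 0.23 SE, limma adjusted p = 3.27e-07). Nkg7, a membrane protein of cytotoxic granules, was at 3912 ± 988 FPKM in DN1eP and 357 ± 123 FPKM in stage 2 (SD, n = 4 and 3). Srgn, the granule proteoglycan serglycin, was at 1129 ± 53.1 FPKM in DN1eP and 1363 ± 482 FPKM in stage 2, and did not pass the test. Transcripts of granule effectors thus differed, while that of the granule matrix overlapped between the groups.

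Chemokine genes held the most abundant of the genes that were higher in DN1eP. Of 19 chemokine ligand genes, 11 passed the filter, 5 were higher and 1 was lower in DN1eP, and the median log2 fold change was 3.15. These are 45.5% and 9.09% of the 11, against 9.29% and 5.38% of all tested genes. Ccl5, a chemokine stored by effector lymphocytes, was at 5221, 9091, 9317 and 8562 FPKM in DN1eP, against 66.0, 59.2 and 48.9 FPKM in stage 2 (log2 fold change 7.06 ± 0.28 SE, limma adjusted p = 1.06e-07). The lowest DN1eP library was far above the highest stage 2 library. Ccl4, an inflammatory chemokine of the same CC family, was at 46.7, 317, 289 and 258 FPKM in DN1eP and at 3.20, 2.43 and 1.82 FPKM in stage 2. Xcl1, the ligand of XCR1 on cross-presenting dendritic cells, was at 1020, 1246, 915 and 1036 FPKM in DN1eP, against 62.9, 17.4 and 30.1 FPKM in stage 2 (log2 fold change 4.98 ± 0.36 SE, limma adjusted p = 9.55e-06). These 3 genes were called whichever library was left out. Mast cell and basophil markers summed to 80.3 FPKM in DN1eP library 1 and 522 to 626 FPKM in libraries 2 to 4, against 1.66 to 8.13 FPKM in stage 2. Ccl5, Ccl4, Ccl3, Ccl9 and Ccl6 were likewise lowest in library 1 among the DN1eP libraries, while Xcl1 was lowest in library 3. The part of mast cells and basophils in the chemokine levels was not tested.

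Ccl3 was at 3.74 FPKM in DN1eP library 1 and at 80.8, 117 and 58.7 FPKM in libraries 2 to 4, against 0.0829, 1.45 and 0 FPKM in stage 2. Ccl9 was at 1.42 FPKM in DN1eP library 1 and at 23.4, 20.5 and 15.9 FPKM in the others, against 0.188, 0.896 and 0.0004 FPKM in stage 2. Both calls were lost on leaving out any 1 of the 6 other libraries, with limma adjusted p of up to 0.146 for Ccl3 and 0.11 for Ccl9, and held without DN1eP library 1. Ccl17, a ligand of CCR4, was at 1.10, 0, 0 and 0 FPKM in DN1eP and at 3.76, 10.96 and 3.52 FPKM in stage 2, and was the 1 ligand that was lower. Without DN1eP library 1 the count of higher ligands was 8, and without any other single library it was 3.

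Promoter sequences of 4 of these genes are shown because NK receptor, granule and chemokine genes were high in the same libraries, and the core motif of RUNX factors (TGTGGT, read on both strands) is marked in capitals. They are taken from RefSeq on GRCm38.p6, not the build of the deposited values, and run from 250 bases before to 50 bases after the annotated start.
Klrc1, chr6:129678924-129679223, minus strand: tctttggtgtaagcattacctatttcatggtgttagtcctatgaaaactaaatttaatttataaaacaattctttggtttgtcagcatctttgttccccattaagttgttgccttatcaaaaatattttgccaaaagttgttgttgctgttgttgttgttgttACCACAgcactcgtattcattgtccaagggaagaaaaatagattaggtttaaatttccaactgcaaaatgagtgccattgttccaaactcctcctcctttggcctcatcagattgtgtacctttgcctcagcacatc
Ncr1, chr7:4337465-4337764, plus strand: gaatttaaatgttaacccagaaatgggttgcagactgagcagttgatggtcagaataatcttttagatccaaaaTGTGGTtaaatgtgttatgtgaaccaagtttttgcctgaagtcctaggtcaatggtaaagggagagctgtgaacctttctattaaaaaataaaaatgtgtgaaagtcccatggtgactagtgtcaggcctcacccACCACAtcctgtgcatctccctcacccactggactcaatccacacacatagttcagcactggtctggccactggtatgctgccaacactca
Gzma, chr13:113100932-113101231, minus strand: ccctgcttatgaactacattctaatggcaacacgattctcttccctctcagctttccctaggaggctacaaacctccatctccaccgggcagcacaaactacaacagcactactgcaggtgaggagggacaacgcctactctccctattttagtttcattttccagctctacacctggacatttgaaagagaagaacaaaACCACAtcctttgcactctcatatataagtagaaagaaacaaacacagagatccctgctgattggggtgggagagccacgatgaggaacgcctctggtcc
Xcl1, chr1:164935473-164935772, minus strand: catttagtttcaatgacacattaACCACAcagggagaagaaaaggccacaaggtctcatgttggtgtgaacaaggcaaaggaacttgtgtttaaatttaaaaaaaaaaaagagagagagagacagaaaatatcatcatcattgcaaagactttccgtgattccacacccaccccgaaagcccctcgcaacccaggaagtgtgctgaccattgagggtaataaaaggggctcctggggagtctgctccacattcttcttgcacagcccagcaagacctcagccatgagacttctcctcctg
Klrc1, Gzma and Xcl1 each held 1 copy of the motif and Ncr1 held 2. Of the genes called higher in DN1eP, the motif was in 10 of 19 NK receptor promoters in the table (9 of 18 without Klrb1c), in 6 of 9 of the cytotoxic granule genes and in 2 of 3 of the chemokine ligands. Among genes called lower it was in 4 of 13 DNA replication and 2 of 17 mitosis promoters. In all 27025 promoters of the table its share was 16.9%, in the 7155 of tested genes it was 13.2%, and in those of all genes called higher it was 17.02%. Receptor genes of a cluster are related in sequence, so their promoters are not independent. The motif was among 8 searched on both strands and was chosen with the results known. For GGTGTGA (T-box factors) the numbers were 0 of 19 receptors, 1 of 9 granule genes and 1 of 3 chemokines, against 3.96% of all promoters and 3.17% of those of tested genes. For GGAAGT (ETS factors) they were 3, 2 and 3, against 24.1% and 31.8%, and for TGANTCA (AP-1) they were 4, 1 and 1, against 7.93% and 4.75%. The NF-κB motif was in none of these promoters, in 0.385% of all and in 0.405% of those of tested genes. TGTGGT and GGTGTGA can share bases. Runx3, a RUNX factor of cytotoxic lymphocytes, was at 21.7, 19.9, 28.7 and 21.3 FPKM in DN1eP and at 11.6, 13.5 and 7.16 FPKM in stage 2, a call that was lost without any library except DN1eP library 1 and stage 2 library 6.

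**Figure D2:**
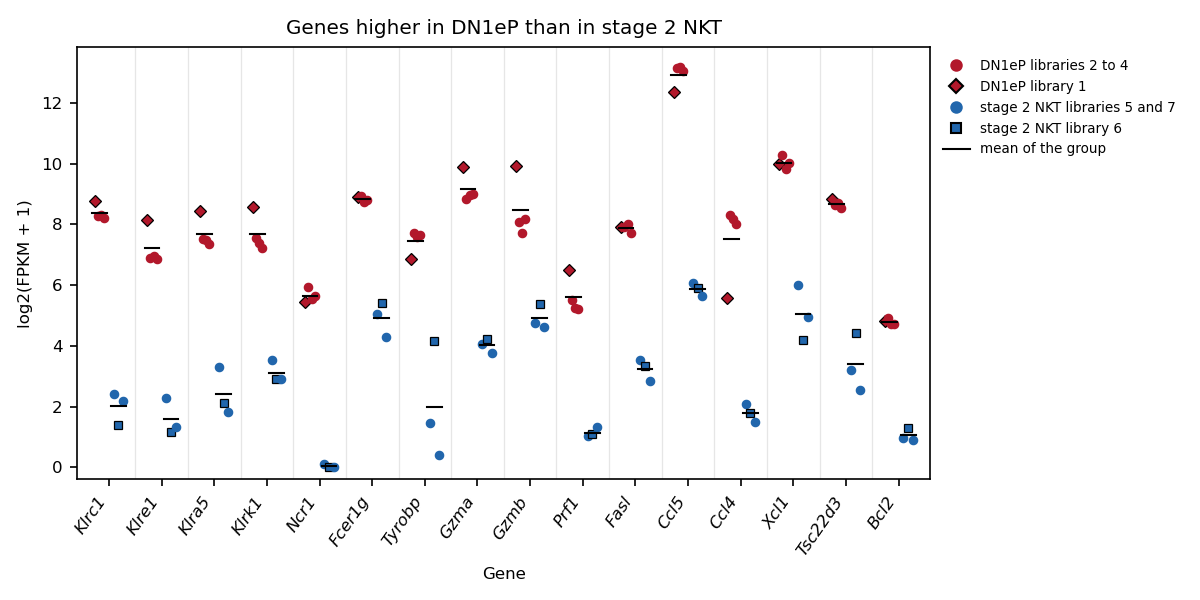
Level of 16 genes as log2(FPKM + 1) in each DN1eP library (red, left of each pair) and each stage 2 NKT library (blue, right), with black lines at the group means. DN1eP library 1 is a diamond and stage 2 library 6 a square. No DN1eP library overlaps with a stage 2 library on any of these genes; Ccl5 lies at 5221 FPKM or more in DN1eP and at 66.0 FPKM or less in stage 2.

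Genes of cell division were lower in DN1eP. Of 25 mitosis genes, all of which passed the filter, 22 were lower and none was higher, with a median log2 fold change of -2.59. The share lower was 88.0%, against 5.38% of all tested genes. The count was 23 without DN1eP library 1 and 19 without stage 2 library 6. Ccnb1, the cyclin that drives entry into mitosis, was at 4.63, 4.31, 4.76 and 2.92 FPKM in DN1eP, against 88.3, 58.6 and 77.9 FPKM in stage 2 (log2 fold change -3.88 ± 0.27 SE, limma adjusted p = 5.55e-06). Kif20a, a kinesin of cell separation, was at 1.40, 2.78, 3.64 and 1.67 FPKM in DN1eP and at 45.6, 27.6 and 47.8 FPKM in stage 2. Cdca8, which encodes a subunit of the chromosomal passenger complex, was at 7.16, 8.96, 3.86 and 2.17 FPKM in DN1eP and at 88.1, 47.2 and 65.0 FPKM in stage 2. Stage 2 library 6 was the lowest of its group on these 3 genes and still lay above every DN1eP library. Mki67, the proliferation marker Ki-67, was at 1.55 ± 0.432 FPKM in DN1eP and 14.1 ± 5.07 FPKM in stage 2 (SD, n = 4 and 3).

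DNA replication genes followed, with 15 of 25 tested members lower, none higher and a median log2 fold change of -1.52. The share lower was 60.0%, against 5.38% of all tested genes. Rrm2, a subunit of the enzyme that makes deoxynucleotides, was at 23.1, 27.2, 24.1 and 21.3 FPKM in DN1eP, against 259, 142 and 263 FPKM in stage 2 (log2 fold change -3.11 ± 0.25 SE, limma adjusted p = 2.03e-05). Tk1, thymidine kinase, was at 8.52 ± 4.50 FPKM in DN1eP and 67.3 ± 25.5 FPKM in stage 2. Uhrf1, which maintains DNA methylation through replication, was at 5.55 ± 1.22 FPKM in DN1eP and 45.1 ± 12.4 FPKM in stage 2 (SD, n = 4 and 3 for each). Replication-dependent histone genes, whose transcripts are made in S phase, were lower in 12 of 15 tested members (80.0%) and higher in none. Hist1h4d was at 10.2, 8.97, 17.3 and 22.8 FPKM in DN1eP and at 135, 91.9 and 68.0 FPKM in stage 2. Of 10 tested G1 cyclins and CDK inhibitors, 1 was higher and 1 lower (10.0% each, against 9.29% and 5.38% of all tested genes). Cdk4, which drives exit from G1, was lower (78.8 ± 17.8 FPKM in DN1eP, 177 ± 21.3 FPKM in stage 2), a call lost without stage 2 library 7. Cdkn1a, the inhibitor p21, was at 1.57, 9.06, 7.51 and 7.52 FPKM in DN1eP and at 0.512, 1.04 and 0.329 FPKM in stage 2, a call lost without DN1eP library 2 or stage 2 library 5 or 7.

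Promoters of mitosis genes commonly hold a CCAAT box upstream of a cell cycle genes homology region, TTTGAA in its usual form. The promoters of Plk1, a mitotic kinase, and of Cdca8 are shown because their genes fell together, with both motifs in capitals on either strand (RefSeq, GRCm38.p6).
Plk1, chr7:122159185-122159484, plus strand: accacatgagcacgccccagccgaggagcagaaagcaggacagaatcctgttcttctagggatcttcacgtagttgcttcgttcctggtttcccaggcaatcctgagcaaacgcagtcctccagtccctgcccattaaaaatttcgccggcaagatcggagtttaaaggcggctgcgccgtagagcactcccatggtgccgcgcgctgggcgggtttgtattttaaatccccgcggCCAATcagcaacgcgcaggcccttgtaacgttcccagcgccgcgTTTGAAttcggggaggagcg
Cdca8, chr4:124936868-124937167, minus strand: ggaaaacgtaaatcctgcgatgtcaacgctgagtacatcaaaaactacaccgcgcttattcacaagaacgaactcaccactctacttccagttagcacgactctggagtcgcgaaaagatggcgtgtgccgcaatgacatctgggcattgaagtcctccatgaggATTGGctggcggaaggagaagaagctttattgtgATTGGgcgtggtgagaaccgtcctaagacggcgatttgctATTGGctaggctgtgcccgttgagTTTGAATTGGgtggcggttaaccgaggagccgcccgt
Plk1 held 1 copy of each motif, and Cdca8 held 1 TTTGAA and 4 CCAAT boxes, the last of which shares 1 base with the TTTGAA. Of 17 mitosis genes called lower with a promoter in the table, 12 held TTTGAA, against 18.1% of all promoters and 12.4% of those of tested genes, and 14 held CCAAT, against 37.9% and 39.9%. TTTGAA was also in 6 of the 19 NK receptor promoters of genes called higher. Of 13 DNA replication genes called lower, 3 held TTTGAA, 9 held CCAAT and 5 held GCGGGAA, an E2F motif that was in none of the 17 mitosis promoters, in 4.66% of all and in 8.78% of those of tested genes. Plk1 itself was at 0.0974, 0.455, 3.20 and 0 FPKM in DN1eP and at 20.3, 13.1 and 16.4 FPKM in stage 2.

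**Figure D3:**
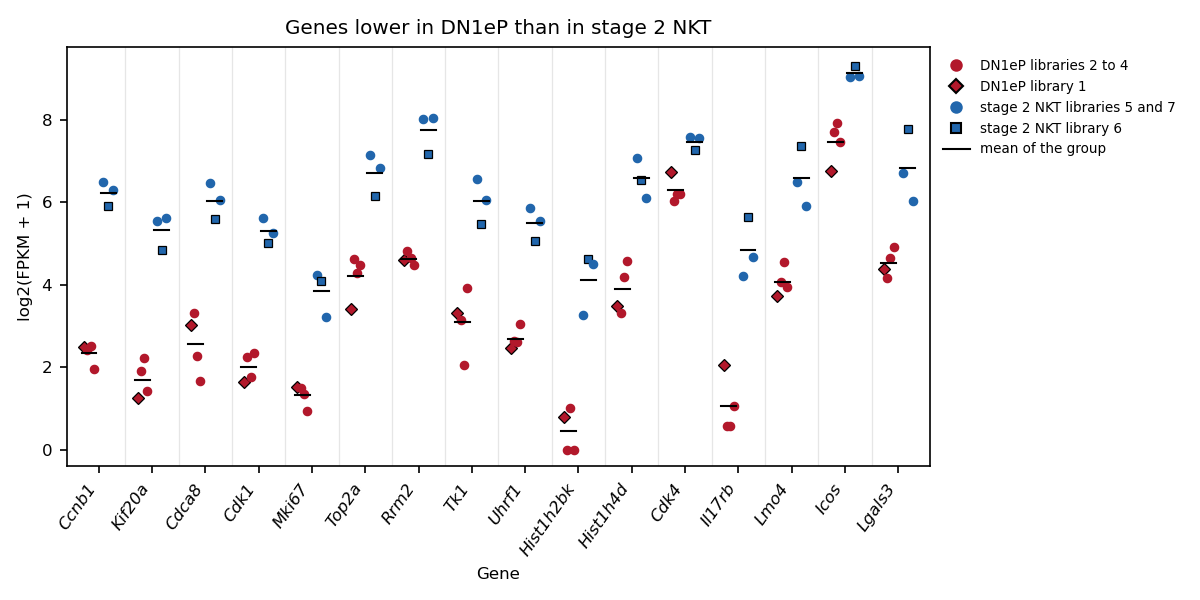
Level of 16 genes as log2(FPKM + 1) in each DN1eP library (red, left of each pair) and each stage 2 NKT library (blue, right), with black lines at the group means. All 16 lie lower in the 4 DN1eP libraries than in the 3 stage 2 libraries without overlap; Rrm2 lies at 21.3 to 27.2 FPKM in DN1eP and at 142 FPKM or more in stage 2.

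Genes of T cell receptor signalling were mostly expressed in both groups. Of 27 tested members of the TCR complex and its proximal signalling, 5 were higher and 2 were lower in DN1eP, 18.5% and 7.41% of the list. The shares over all tested genes were 9.29% and 5.38%. Without stage 2 library 7 the counts were 3 and 1, and without stage 2 library 5 or 6 the lower count was also 1. Cd3e, Cd3d and Cd3g did not pass the test, although Cd3e did with the interval set as a term (limma adjusted p = 0.0446). DN1eP averaged 1294 ± 186 FPKM of Cd3e, against 844 ± 47.1 FPKM in stage 2 (SD, n = 4 and 3). Txk, a kinase downstream of the receptor, was at 128, 182, 217 and 164 FPKM in DN1eP, against 35.2, 47.8 and 40.8 FPKM in stage 2. Ptprc, which encodes the phosphatase CD45, was at 390 ± 46.1 FPKM in DN1eP and 122 ± 25.6 FPKM in stage 2. Zap70, the kinase that docks on the activated receptor, was lower, at 29.8, 35.5, 38.9 and 30.9 FPKM in DN1eP and 65.3, 84.3 and 58.3 FPKM in stage 2. Its call was lost without stage 2 library 6 and it was chosen after its values were seen. Among negative regulators, Ptpn22, a phosphatase, and Ubash3a, which dampens receptor signals, were higher: Ubash3a was at 23.8 ± 7.62 FPKM in DN1eP and 3.59 ± 1.02 FPKM in stage 2.

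Receptors for cytokines were higher in 11 of 26 tested members and lower in 1, with a median log2 fold change of 1.18. These are 42.3% and 3.85%, against 9.29% and 5.38% of all tested genes. The count of higher members was 14 without DN1eP library 1, 10 without stage 2 library 6 and 7 without stage 2 library 7. Ifngr1, the ligand-binding chain of the IFN-γ receptor, was at 549, 550, 613 and 635 FPKM in DN1eP, against 40.0, 92.4 and 39.3 FPKM in stage 2 (log2 fold change 3.45 ± 0.30 SE, limma adjusted p = 2.58e-05). Il12rb2, the signalling chain of the IL-12 receptor, was at 41.9, 34.8, 26.01 and 21.5 FPKM in DN1eP and at 2.36, 1.41 and 2.31 FPKM in stage 2. Stat4, which carries the IL-12 signal, was at 71.0, 84.6, 97.5 and 82.3 FPKM in DN1eP, against 2.64, 11.3 and 3.38 FPKM in stage 2 (log2 fold change 3.86 ± 0.37 SE, limma adjusted p = 8.58e-05). The IL-12 receptor chain and its transducer were thus both higher without overlap. Il4ra was at 22.4 ± 9.39 FPKM in DN1eP and 2.08 ± 0.528 FPKM in stage 2, and Il21r was at 59.8 ± 23.1 FPKM in DN1eP and 10.4 ± 3.60 FPKM in stage 2 (SD, n = 4 and 3 for each). Il2rb, the chain shared by the IL-2 and IL-15 receptors, was at 449, 235, 284 and 312 FPKM in DN1eP and at 121, 66.3 and 105 FPKM in stage 2. It was chosen after its values were seen.

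Il17rb, a chain of the IL-25 receptor, was the cytokine receptor that was lower. It was at 3.17, 0.490, 0.493 and 1.11 FPKM in DN1eP, against 17.6, 49.2 and 24.5 FPKM in stage 2 (log2 fold change -3.77 ± 0.45 SE, limma adjusted p = 0.000277). STAT5 and SOCS response genes were higher in 8 of 22 tested members (36.4%, against 9.29% of all tested genes) and lower in none. Without DN1eP library 1, 13 were higher, where 18.6% of all tested genes were. Cish, a feedback inhibitor of cytokine signals, was at 35.4 ± 9.14 FPKM in DN1eP and 6.77 ± 2.44 FPKM in stage 2. Bcl2, which blocks apoptosis, was at 27.0, 29.6, 25.4 and 25.3 FPKM in DN1eP, against 0.959, 1.46 and 0.860 FPKM in stage 2 (log2 fold change 3.74 ± 0.27 SE, limma adjusted p = 7.59e-06). Bcl2l11, which encodes the pro-apoptotic BIM that BCL2 binds, was higher too, at 7.46, 28.7, 29.1 and 29.9 FPKM in DN1eP and 2.35, 2.45 and 1.99 FPKM in stage 2.

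Of 34 lineage regulators, 33 were measured and 29 passed the filter. Of these, 5 were higher and 3 were lower in DN1eP, 17.2% and 10.3%, against 9.29% and 5.38% of all tested genes. The higher count was 9 without DN1eP library 1, 0 without stage 2 library 7 and 2 without any other single library, and the lower count was 2 or 3 throughout. Zbtb16, which encodes PLZF, was at 2.73, 6.77, 1.75 and 3.29 FPKM in DN1eP and at 10.96, 7.28 and 5.51 FPKM in stage 2, and the groups overlapped (limma adjusted p = 0.102). Tbx21, which encodes T-bet, was at 8.15, 6.98, 7.01 and 6.12 FPKM in DN1eP and at 5.38, 1.67 and 3.82 FPKM in stage 2 (limma adjusted p = 0.102). Gata3 was at 53.7 ± 7.78 FPKM in DN1eP and 66.0 ± 15.2 FPKM in stage 2 (SD, n = 4 and 3). None of these 3 regulators passed the test.

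Id3, an inhibitor of E proteins, was at 6.70, 36.5, 40.3 and 40.4 FPKM in DN1eP, against 235, 140 and 187 FPKM in stage 2 (log2 fold change -2.80 ± 0.60 SE, limma adjusted p = 0.0214). Its call was lost without DN1eP library 2 or any 1 of the stage 2 libraries. The related Id2 was at 4363 FPKM in DN1eP library 1 and at 1434, 1282 and 1411 FPKM in libraries 2 to 4, against 1752, 1957 and 1654 FPKM in stage 2, and did not pass the test. Lmo4, a LIM-domain cofactor, was at 12.3, 15.8, 22.6 and 14.4 FPKM in DN1eP and at 89.4, 164 and 59.1 FPKM in stage 2 (log2 fold change -2.52 ± 0.33 SE, limma adjusted p = 0.000597). Maf, a factor of IL-17-producing T cells among others, was at 36.1 ± 5.00 FPKM in DN1eP and 80.4 ± 19.4 FPKM in stage 2. Klf2, which drives genes of thymic exit, was at 13.8 ± 2.59 FPKM in DN1eP and 4.56 ± 2.43 FPKM in stage 2, a call lost without stage 2 library 6 or 7. The calls of Ikzf2 and Tcf12 were lost without any single library except DN1eP library 1.

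Genes of residence and migration were higher in 8 of 17 tested members (47.1%, against 9.29% of all tested genes) and lower in none. The higher count was 10 without DN1eP library 1 and 2 to 5 without any other single library. Rgs1, which dampens chemokine receptor signals and holds T cells in tissue, was at 904, 1093, 973 and 818 FPKM in DN1eP, against 306, 72.6 and 81.8 FPKM in stage 2 (log2 fold change 2.94 ± 0.44 SE, limma adjusted p = 0.00213). Itga1, an integrin chain of tissue-resident lymphocytes, was at 6.53, 3.47, 1.43 and 3.29 FPKM in DN1eP and at 0, 0.0575 and 0 FPKM in stage 2. Among chemokine receptors, Ccr8 was at 234 ± 45.6 FPKM in DN1eP and 89.5 ± 14.6 FPKM in stage 2, and Cx3cr1 was at 8.39 ± 3.77 FPKM in DN1eP and 0.790 ± 0.439 FPKM in stage 2 (SD, n = 4 and 3 for each). Of 15 tested chemokine receptors, 3 were higher and 1 was lower. Without DN1eP library 1 the counts were 8 and 2, where 18.6% and 9.15% of all tested genes were called. Without any single stage 2 library they were 2 and 0.

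Costimulatory and checkpoint receptors moved both ways, 7 of 22 tested members being higher and 3 lower. These are 31.8% and 13.6%, against 9.29% and 5.38% of all tested genes. Tnfrsf18, which encodes GITR, was at 329, 350, 369 and 343 FPKM in DN1eP, against 103, 66.8 and 86.6 FPKM in stage 2 (log2 fold change 2.03 ± 0.22 SE, limma adjusted p = 0.000152). Tnfsf8, the ligand of CD30, was at 3.71, 4.95, 13.6 and 5.33 FPKM in DN1eP and at 0.0240, 0.620 and 0 FPKM in stage 2. Icos, a costimulatory receptor, was lower, at 107, 208, 242 and 176 FPKM in DN1eP and 527, 628 and 532 FPKM in stage 2 (log2 fold change -1.67 ± 0.29 SE, limma adjusted p = 0.00303). Without DN1eP library 1 the counts were 10 higher and 5 lower, and without any other single library they were 2 to 5 and 1 to 3. Pdcd1, which encodes PD-1, was at 85.2 FPKM in DN1eP library 1 and 372, 367 and 367 FPKM in libraries 2 to 4, on either side of the 231, 179 and 262 FPKM of stage 2.

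Of 31 tested interferon response genes, 6 were higher and 1 was lower, 19.35% and 3.23%, against 9.29% and 5.38% of all tested genes. The median log2 fold change of the 31 was 0.16, and without stage 2 library 7, 3 were higher. Ifitm1, which encodes an antiviral membrane protein, was among the 6 and was at 72.3, 41.5, 50.4 and 64.2 FPKM in DN1eP, against 0.206, 0.391 and 0.718 FPKM in stage 2 (log2 fold change 5.32 ± 0.29 SE, limma adjusted p = 5.22e-07). The related Ifitm2, also called higher, was at 334, 153, 174 and 130 FPKM in DN1eP and at 12.3, 6.94 and 3.61 FPKM in stage 2. GIMAP genes, which encode GTPases of lymphocyte survival, were higher in 5 of 8 members (62.5%, against 9.29% of all tested genes). Gimap6 was at 940, 1021, 938 and 923 FPKM in DN1eP and at 204, 113 and 263 FPKM in stage 2. Tsc22d3, which encodes the glucocorticoid-induced protein GILZ, was among the largest rises, at 462, 401, 414 and 372 FPKM in DN1eP, against 8.24, 20.4 and 4.88 FPKM in stage 2 (log2 fold change 5.29 ± 0.36 SE, limma adjusted p = 9.55e-06).

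In the list of MHC class I and antigen processing, 4 of 17 tested members were higher and 2 lower, 23.5% and 11.8%, with 1 lower without any single library except DN1eP library 1 and stage 2 library 6. Over all tested genes the shares were 9.29% and 5.38%. H2-Q4, a nonclassical class I gene, was at 28.4, 76.5, 65.2 and 59.8 FPKM in DN1eP and at 9.66, 6.08 and 3.42 FPKM in stage 2, whereas Tap2, a peptide transporter chain, was at 4.29 ± 1.76 FPKM in DN1eP and 20.04 ± 4.93 FPKM in stage 2 (SD, n = 4 and 3). H2-Q genes are near-identical copies between which reads can be split. Glycolysis genes were lower in 3 of 19 tested members (15.8%, against 5.38% of all tested genes), in 1 or 2 without any single library except DN1eP library 1, and the one of these called whichever library was left out was Pfkl, an isoform of the rate-limiting phosphofructokinase (4.73 ± 2.19 FPKM in DN1eP, 17.6 ± 1.505 FPKM in stage 2). The respiratory chain had 4 of 27 members lower and none higher, 14.8% of the list, against 5.38% of all tested genes. After quantile normalization 10 were lower, where 8.49% of all tested genes were. None of the 27 was called without any 1 of DN1eP libraries 2 to 4 or stage 2 libraries 5 and 7, and 6 were lower without DN1eP library 1. Lgals3, which encodes galectin-3, was at 19.7, 17.04, 24.1 and 29.1 FPKM in DN1eP and at 104, 216 and 63.9 FPKM in stage 2.

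Of 14 tested secreted cytokines, 1 was higher (7.14%, against 9.29% of all tested genes) and none was lower. Without DN1eP library 1, 3 were higher, where 18.6% of all tested genes were. Without DN1eP library 1 and stage 2 library 6 together, 4 were higher and 2 lower, where 1839 and 900 of all 10082 tested genes were. The gene called over all libraries, Csf2, was at 10.2, 6.59, 8.83 and 3.10 FPKM in DN1eP and at 0.293, 3.88 and 1.54 FPKM in stage 2, and its call was lost without DN1eP library 1, 2 or 3 or without stage 2 library 5 or 7, and with the interval set as a term (limma adjusted p = 0.0552). Il4 was at 65.3, 48.1, 64.6 and 52.2 FPKM in DN1eP and at 189, 58.0 and 156 FPKM in stage 2, which was called lower on leaving out stage 2 library 6 and in no other of the 7 leave-outs. Ifng was at 136, 78.9, 72.1 and 76.3 FPKM in DN1eP and at 47.8, 0.479 and 13.4 FPKM in stage 2, without overlap but with a limma adjusted p of 0.144. It was chosen after its values were seen. Of 19 tested type 17 genes none was higher and Maf alone was lower (5.26%, against 5.38% of all tested genes). Of 18 type 2 genes 1 was higher (5.56%, against 9.29%) and 3 were lower (16.7%, against 5.38%). Without stage 2 library 6 these counts were 2 higher type 17 genes and 6 lower type 2 genes, and without DN1eP library 1 there were 2 higher type 17 and 5 higher type 2 genes. Over all tested genes, 4.69% were higher and 3.57% lower without stage 2 library 6. Without DN1eP library 1, 18.6% of all tested genes were higher, so more calls there are not particular to these lists. Stage 2 library 6 was the highest of its group on Ccr6 (102 FPKM) and the lowest on Cd4 (0.843 FPKM), so the stage 2 spread on these genes was wide.

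The genes behind the sort gates are a check of the labels and not a finding. Klrb1c, which encodes NK1.1, the marker absent from stage 2 by the sort, was at 495, 216, 234 and 170 FPKM in DN1eP and at 23.2, 27.1 and 15.7 FPKM in stage 2. NK1.1 is not named in the DN1eP gate. Cd44, positive in both gates, was at 56.5 ± 25.98 FPKM in DN1eP and 35.0 ± 7.68 FPKM in stage 2. Cd5, positive in the DN1eP gate, was at 16.9 ± 5.38 FPKM in DN1eP and 44.9 ± 10.9 FPKM in stage 2, Cd27 was at 199 ± 31.2 FPKM in DN1eP and 103 ± 41.0 FPKM in stage 2, and Cxcr3 was at 214 ± 141 FPKM in DN1eP and 94.6 ± 47.0 FPKM in stage 2 (SD, n = 4 and 3 for each). Slamf6, which encodes Ly108, by whose absence DN1eP was sorted, was at 0.174, 13.01, 12.7 and 7.11 FPKM in DN1eP and at 51.2, 14.8 and 54.9 FPKM in stage 2. Il2ra, which encodes the excluded CD25, was at 14.4, 6.91, 10.1 and 8.14 FPKM in DN1eP and at 0.641, 6.42 and 1.10 FPKM in stage 2. The transcript was thus called higher in the fraction sorted without the protein (log2 fold change 1.84, limma adjusted p = 0.0296). That call was lost without DN1eP library 2, 3 or 4 or stage 2 library 5 or 7. Cd24a was at 0.936 FPKM in DN1eP library 1 and 12.4, 15.9 and 7.64 FPKM in libraries 2 to 4, against 0.121, 6.09 and 0.409 FPKM in stage 2.

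Mast cell and basophil transcripts moved with the DN1eP group. Summed over 14 markers, they reached 80.3 FPKM in DN1eP library 1 and 522 to 626 FPKM in libraries 2 to 4, against 1.66 to 8.13 FPKM in stage 2. Prss34, a basophil protease, was at 36.7, 375, 334 and 363 FPKM in DN1eP and at 2.35, 0.0730 and 0 FPKM in stage 2. Mcpt8, another basophil protease, was at 22.3, 162, 135 and 155 FPKM in DN1eP and at 3.52, 0.116 and 0 FPKM in stage 2. Ms4a2, the β chain of the high-affinity IgE receptor, was at 5.20, 5.65, 4.54 and 11.5 FPKM in DN1eP and was listed at 0 in all 3 stage 2 libraries. The mast cell proteases Mcpt1, Mcpt2, Mcpt4, Tpsb2 and Tpsab1 were at 0 in all 7 libraries. Of the 7 markers that passed the filter, 5 were called higher (71.4%, against 9.29% of all tested genes), among them Cpa3 and Kit. Cpa3 was at 12.7, 48.1, 34.4 and 31.2 FPKM in DN1eP, against 0.195, 0.946 and 0.0301 FPKM in stage 2. Fcer1g and Tyrobp, given above, are also expressed by basophils, and the part of these cells in the levels of both adaptors was not tested. The 35 NK receptor genes summed to 4695, 2738, 2418 and 2197 FPKM in DN1eP libraries 1 to 4, against 256 to 459 FPKM in stage 2. That sum was highest in library 1, where the marker sum was lowest, and among libraries 2 to 4 both sums were highest in library 2. The part of basophils or mast cells in the receptor levels was not tested.

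Granulocyte and monocyte markers summed to 1676 FPKM in DN1eP library 1 and 567 to 655 FPKM in libraries 2 to 4, against 164, 334 and 129 FPKM in stage 2 libraries 5 to 7. Of the 17 markers, 8, 6, 6 and 5 reached 1 FPKM in DN1eP libraries 1 to 4, and 1, 8 and 1 in stage 2 libraries 5 to 7. The sums of stage 2 libraries 5 and 7 thus rest largely on 1 marker. Mpo and Elane made up only a part of the DN1eP sums. Mpo, myeloperoxidase, was at 271, 28.8, 26.6 and 17.97 FPKM in DN1eP and at 0.187, 0 and 0 FPKM in stage 2, and Elane, neutrophil elastase, was at 87.1 FPKM in DN1eP library 1 and at 0, 0 and 0.717 FPKM in the others. S100a8, by contrast, was at 81.7 FPKM in stage 2 library 6 and at 1.55 FPKM or less in every other library. B cell markers summed to 1874 FPKM in stage 2 library 6, against 331 and 256 FPKM in stage 2 libraries 5 and 7, and 362 to 462 FPKM in DN1eP. In that library Cd79a was at 42.3 FPKM and the hemoglobin gene Hba-a2 at 149 FPKM, while in DN1eP Cd79a was at 0.0434 FPKM or less and Hba-a2 was at 0. Car2, which erythroid cells and other cells express, was at 49.0 ± 9.70 FPKM in DN1eP and 0.923 ± 1.60 FPKM in stage 2 (SD, n = 4 and 3). Stroma and epithelium markers summed to 21.1 to 35.6 FPKM in DN1eP and 5.09 to 7.12 FPKM in stage 2, with Pdgfra, Foxn1 and Krt5 at 0 in all 7 libraries. Dendritic cell and macrophage markers summed to 78.2 to 250 FPKM in DN1eP and, in stage 2, to 2174 FPKM in library 6 and 118 and 189 FPKM in the others. Cd74, counted in this list and in that of B cells, was at 1459 FPKM in stage 2 library 6 and held most of both sums there. It was at 96.4 and 49.8 FPKM in stage 2 libraries 5 and 7, and at 17.1 to 142 FPKM in DN1eP. Of the 19 dendritic cell and macrophage markers, 10 reached 1 FPKM in stage 2 library 6, as in DN1eP libraries 2 and 3. In stage 2 libraries 5 and 7, 6 did. Double positive thymocyte markers overlapped, at 79.7 to 184 FPKM in DN1eP and 104 to 158 FPKM in stage 2.

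**Figure D4:**
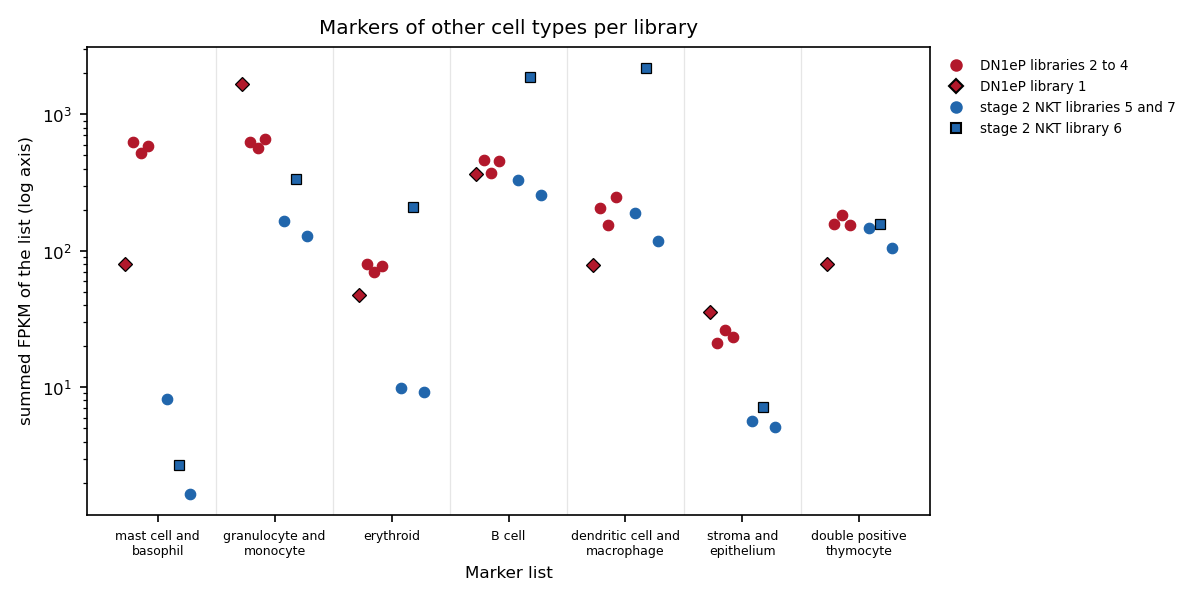
FPKM summed over the markers of 7 other cell types (log axis) in each DN1eP library (red, left of each pair) and each stage 2 NKT library (blue, right). DN1eP library 1 is a diamond and stage 2 library 6 a square; mast cell and basophil markers lie at 80.3 FPKM or more in DN1eP and at 8.13 FPKM or less in stage 2, and B cell markers are highest in stage 2 library 6, at 1874 FPKM.

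Levels in stage 3, whose cells carry NK1.1, are set beside those of DN1eP as a description, with no test of the difference. Klrc1 was at 338 ± 63.7 FPKM in DN1eP and at 329 ± 52.1 FPKM in the 3 stage 3 libraries of the same low median FPKM (SD, n = 4 for DN1eP and 3 for stage 3, here and below). For Gzma the values were 605 ± 234 FPKM in DN1eP and 577 ± 117 FPKM in stage 3, and for Prf1 they were 51.4 ± 25.0 FPKM in DN1eP and 53.7 ± 8.87 FPKM in stage 3. Nkg7 was at 3912 ± 988 FPKM in DN1eP and 4020 ± 686 FPKM in stage 3, and Bcl2 at 26.8 ± 1.98 FPKM in DN1eP and 29.7 ± 2.56 FPKM in stage 3. The means differed by less than the larger SD on Klrc1, Gzma, Prf1 and Nkg7, and by a little more on Bcl2. Without DN1eP library 1 this was otherwise for Prf1, which was at 39.1 ± 4.51 FPKM over DN1eP libraries 2 to 4 (SD, n = 3), further below stage 3 than the larger SD. Other receptor and granule genes had lower means in DN1eP: Klra9 was at 233 ± 185 FPKM in DN1eP and 753 ± 177 FPKM in stage 3, Klrd1 at 539 ± 234 FPKM in DN1eP and 939 ± 123 FPKM in stage 3, and Gzmb at 437 ± 362 FPKM in DN1eP and 815 ± 117 FPKM in stage 3. Means were higher in DN1eP on other genes: Ncr1 was at 49.3 ± 7.72 FPKM in DN1eP and 2.83 ± 1.37 FPKM in stage 3, and Ccl5 at 8048 ± 1911 FPKM in DN1eP and 2211 ± 420 FPKM in stage 3. Cell division genes were low in both, with Ccnb1 at 4.16 ± 0.849 FPKM in DN1eP and 8.96 ± 2.94 FPKM in stage 3.

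Several genes were low in DN1eP library 1 and high in libraries 2 to 4, and did not pass the test over all 7 libraries. Il17f was at 2.16 FPKM in DN1eP library 1 and 200, 146 and 158 FPKM in libraries 2 to 4, against 6.303, 0.837 and 0.465 FPKM in stage 2 (limma adjusted p = 0.15). Ramp3, a receptor-modifying protein for CGRP-family peptides, was at 7.04 FPKM in library 1 and 293, 259 and 260 FPKM in libraries 2 to 4, against 5.54, 21.1 and 4.74 FPKM in stage 2. Ccr9, the receptor for the thymic and gut chemokine CCL25, was at 1.93 FPKM in library 1 and 136, 107 and 103 FPKM in libraries 2 to 4, against 38.0, 9.16 and 50.5 FPKM in stage 2. Ccr7, a receptor for lymph node homing, was at 4.76 FPKM in library 1 and 136, 152 and 140 FPKM in libraries 2 to 4, against 56.4, 29.6 and 47.5 FPKM in stage 2. Library 1 lay on the far side of stage 2 from libraries 2 to 4 on both Ccr7 and Ccr9. Ccl6 was at 0.198 FPKM in library 1 and 34.0, 29.0 and 27.1 FPKM in libraries 2 to 4, against 0.276, 1.89 and 0 FPKM in stage 2. Without library 1 all 5 genes were called higher in DN1eP, with limma adjusted p of 0.000165 for Il17f, 0.000142 for Ramp3, 0.000409 for Ccr7, 0.0364 for Ccr9 and 1.8e-05 for Ccl6. Ramp3, Ccr7 and Ccr9 were chosen after their values were seen. All 5 genes are grouped here because library 1 was low on them. Their calls without that library follow in part from this choice and are a description only.

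**Figure D5:**
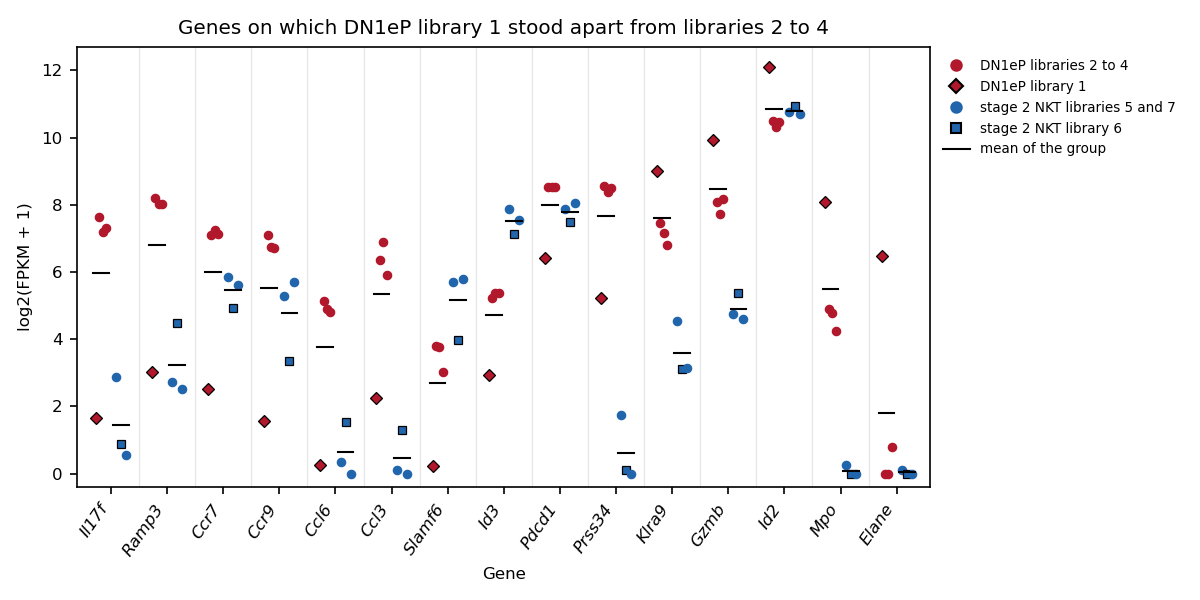
Level of 15 genes as log2(FPKM + 1) in each DN1eP library (red, left of each pair) and each stage 2 NKT library (blue, right), with black lines at the group means. DN1eP library 1 (diamond) lies far below libraries 2 to 4 from Il17f to Prss34 and above them from Klra9 to Elane; on Il17f it has 2.16 FPKM, where libraries 2 to 4 have 146 to 200 FPKM.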

How the data were processed

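Sorted thymocytes were measured by RNA-seq, and 7 libraries of the series entered the main comparison. The authors deposited FPKM per gene on mm9, and the submitters' processing notes name TopHat2 2.0.6 and Cufflinks 2.1.1. Deposited FPKM intervals were used for precision only. Total counts were not analysed here, so depth is unknown. Rows of the same symbol were summed. Of 23267 symbols, 23168 were kept: 86 were absent from some file, and Cufflinks had failed on 13. Genes whose FPKM reached 1 in 3 or more of the 7 libraries were tested on log2(FPKM + 1) by limma 3.58.1 in R 4.3.3, with eBayes set to trend and robust, and p-values were adjusted over all 10082 genes at 0.05. A fold change is on the log2(FPKM + 1) scale, which understates the change of low genes. The FPKM of a gene depends on all other transcripts of its library, so upper-quartile scaling and quantile normalization were tried too.

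On simulated data with the means and spread of these 10082 genes, 20% of 2-fold and 74% of 4-fold changes were recovered, with 4 unchanged genes called. Only genes of higher mean level were changed there. The noise was normal, independent between genes and of equal spread in both groups. Low genes, single libraries that stand apart and unequal precision were thus not simulated, and these shares do not describe them. The 2 comparison groups, the 43 gene lists and the tests were chosen with earlier results of these data known. Genes named are all sort gate genes, lineage regulators and chemokine ligands, up to 6 called members of each other list with the largest changes and the 2 most abundant not called, the 3 highest markers of each other cell type, and the 15 largest rises and falls at a mean of 10 FPKM or more without overlap. The text prints a part of them. Promoters are RefSeq's on GRCm38.p6, the first row per symbol where a symbol has several. Further settings were array weights, limma treat with a 2-fold limit, fits with more libraries of the series, a pseudocount of 0.1, filters of 0 and 5 FPKM, the top row of each symbol in place of the sum, and each library left out in turn. A term for the set of gene intervals that DN1eP library 1 shares with stage 2 library 5, and a fit without both libraries, were added after the data were seen. DN1eP library 4 was listed with a set of its own, which neither the term nor that fit separated from the set of the remaining libraries. Raw reads were not used here, and some genes are not reported here.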

Additional observations from a re-analysis of the deposited data

Results flagged for a closer look

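In 32 of 140 genes examined, 1 of the 4 DN1eP libraries lay apart from the other 3 by more of the group's range than Dixon's 95% limit for 4 values. Chance flags about 1 in 20 such groups of genes not picked for their values. The genes here were chosen with their values known, some for the level in DN1eP library 1, and a gene at 0 in 3 libraries is always flagged, so the count is not read against that rate. The library was number 1 in 27 of the 32, the highest in 21 genes and the lowest in 6. The genes share libraries and are not independent.

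In DN1eP library 1 the NK receptor genes Klrc1 (433 FPKM), Klrk1 (383 FPKM), Klre1 (283 FPKM), Klra5 (344 FPKM) and Klra9 (508 FPKM) were higher than in libraries 2 to 4, as were Nkg7 (5382 FPKM), Gzma (954 FPKM), Gzmb (978 FPKM), Prf1 (88.5 FPKM) and Ifng (136 FPKM). These receptor and granule genes were high in the other 3 libraries too. Also highest in library 1 were Id2 (4363 FPKM), Cxcr3 (423 FPKM), Il7r (499.7 FPKM), Cd2 (804 FPKM), Lgals1 (876 FPKM), Pgam1 (33.8 FPKM), Mpo (271 FPKM) and Elane (87.1 FPKM). At low levels the same held for Ccl17 (1.10 FPKM), S100a8 (1.55 FPKM) and Cd79a (0.0434 FPKM), each at 0 in the other DN1eP libraries.

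Library 1 was the lowest of the group for Id3 (6.70 FPKM), Pdcd1 (85.2 FPKM), Bcl2l11 (7.46 FPKM), Ramp3 (7.04 FPKM), Ccr7 (4.76 FPKM) and Prss34 (36.7 FPKM). Other libraries stood apart in 5 genes: Srgn in library 2 (1208 FPKM), Tnfsf8 (13.6 FPKM), Cish (49.1 FPKM) and Plk1 (3.20 FPKM) in library 3, and Ms4a2 (11.5 FPKM) in library 4. Library 1 also differs from libraries 2 to 4 in the width of the deposited intervals, 6.24% against 18.8% to 23.8%, and in the set of gene intervals it was listed with. Whether these differences have a part in its levels was not tested.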

How the results depend on the processing

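The comparison called 1479 genes, 937 higher and 542 lower in DN1eP. Leaving out each library in turn gave 480 to 2796 calls, 241 to 1873 higher and 239 to 923 lower, the most without DN1eP library 1 and the fewest without stage 2 library 7. Without DN1eP library 1, 1472 of the 1479 calls held, and without stage 2 library 7, 473 did. Leaving out DN1eP library 1 and stage 2 library 6 together gave 2739 calls, 1839 higher and 900 lower. With no filter on low values there were 784 calls (431 higher, 353 lower), and with limma treat against a 2-fold change 167 (84 higher, 83 lower). Array weights gave 2772 (1851 higher, 921 lower), the 13 lower-median libraries in 1 fit 2605 (1675 higher, 930 lower), all 7 stage 2 libraries with library set as a term 2440 (1545 higher, 895 lower), and all 26 libraries with that term 4182 (2528 higher, 1654 lower). Quantile normalization called 856 genes lower. Among DN1eP libraries 2 to 4 and stage 2 libraries 6 and 7, chosen after seeing the data, 2512 genes were called, 1849 of them higher. The cause of these differences was not tested. Of 140 genes examined singly, 108 were called, and 77 of these were called whichever library was left out. None of these 108 changed direction under a setting that tested it. With the interval set as a term, also chosen after seeing the data, 1699 genes were called, 1090 higher and 609 lower. Among the 140 genes, that fit gained Cd3e and Fcer1a and lost Csf2 and Olfr856-ps1. No paired analysis was possible because DN1eP libraries 1 to 4 and stage 2 libraries 5 to 7 share no replicate number. Wide intervals in DN1eP libraries 2 to 4 limit what can be said of low genes there.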

Other observations

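Mir3068 showed the largest fall by the test, at 0 FPKM in all 4 DN1eP libraries and at 89.2, 339 and 207 FPKM in stage 2 libraries 5 to 7. The value is that of a short gene row and not of the mature microRNA, and no fold is given against a group listed at 0. Nanog, a pluripotency factor whose row can share reads with pseudogene copies, was at 6.49, 35.2, 35.1 and 27.5 FPKM in DN1eP and at 5.40, 0.0974 and 0.0285 FPKM in stage 2. The olfactory receptor pseudogene Olfr856-ps1 was at 5.50, 80.5, 65.3 and 53.5 FPKM in DN1eP and at 4.34, 0 and 0 FPKM in stage 2. In each, DN1eP library 1 and stage 2 library 5, which share a set of gene intervals, lay close together, and libraries 2 to 4 of DN1eP lay apart from stage 2 libraries 6 and 7. The call of Olfr856-ps1 was lost with that set as a term (limma adjusted p = 0.0642). Both calls were lost without DN1eP library 2, 3 or 4 or stage 2 library 6 or 7. Nanog and Olfr856-ps1 were chosen after their values were seen.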
